A study of Mus musculus with 6 samples.

Results

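The genes that drive or stop cell division were examined in liver RNA of 3 p62+/+ and 3 p62S351E/+ mice. They are 45 genes chosen by name, of the 24411 gene symbols in the count table, and all 45 were found in it. By role, 9 regulate the G1 phase and entry into S phase, 15 copy the DNA or supply its building blocks, 16 act in G2 and mitosis, and 5 belong to cell cycle arrest and the p53 pathway. The livers were taken at postnatal day 19 from wild-type mice, p62+/+, and from p62S351E/+ mice, in which one allele of Sqstm1, the gene encoding p62, has Ser351 replaced by Glu to mimic phosphorylation. The knock-in line was made by prime editing of C57BL/6N-derived embryonic stem cells and goes back to a single male chimera, whose sperm was used for in vitro fertilization. No sex was given in the labels or the methods. RNA came from liver as a whole, so a gene's level mixes all cell types, and fewer cells of a type cannot be told apart from less RNA per cell.

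In a dividing cell, D-type cyclins with CDK4 and then cyclin E with CDK2 inactivate the retinoblastoma protein, which frees E2F factors to switch on the genes of DNA replication. Later in the cycle, B-type cyclins with CDK1, together with the FOXM1 and MuvB complexes, drive the mitotic genes, whose promoters often hold a CHR element and CCAAT boxes bound by NF-Y. Inhibitors such as CDKN1A and CDKN1B block the CDKs, and p53, which is held down by MDM2, switches on Cdkn1a. In the weeks after birth the liver changes from proliferative growth to a tissue in which most hepatocytes are quiescent.

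Promoters of the members were taken from RefSeq on GRCm38.p6 as windows from 250 bases before to 50 bases after the start of transcription. Windows were found for 36 of the 45 members, and 4 of these had more than 1 window. Ccnd1, Ccnd2, Ccne2, Myc, Mcm4, Ccna2, Aurkb, Tpx2 and Foxm1 had none. Motifs were searched on both strands: the E2F motif as TTCCCGC or TTGGCGC, the CHR element as TTTGAA and the CCAAT box as CCAAT. An E2F match and a CCAAT match shared bases in 3 members. Of the replication genes 9 of 14 (64.3%) held an E2F match, against 3 of 12 mitotic genes (25%) and 7.79% of the 27025 genes in the table. Of the mitotic genes 9 of 12 (75%) held a CHR match, against 1 of 14 replication genes (7.14%) and 20.2% of all genes. CCAAT matches occurred in 11 of 12 mitotic genes (91.7%), 10 of 14 replication genes (71.4%) and 41.1% of all genes. The replication genes with an E2F match were Cdc6, Cdt1, Mcm3, Mcm5, Mcm6, Mcm7, Rrm1, Pola1 and Prim1, and the mitotic genes with a CHR match were Mki67, Top2a, Ccnb2, Cdk1, Cdc20, Aurka, Plk1, Kif11 and Cenpf. In each of the G1 and the arrest groups, 1 of 5 genes held an E2F match and 0 of 5 a CHR match. These are matches of letters and were not tested as binding sites. In the further cell cycle genes described further on, E2F matches were most frequent in the G1 and G1/S genes (46.2% of 13). The share was 36.8% of 19 replication genes, 12.9% of 31 mitotic genes and 13% of 23 arrest genes. CHR matches occurred in 67.7% of these mitotic genes, 38.5% of the G1 and G1/S genes, 21.1% of the replication genes and 21.7% of the arrest genes.

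The promoters of 4 members are shown from 250 bases before the start up to it, with every motif match in capitals. Mki67, which encodes the proliferation antigen Ki-67, and Top2a, which encodes the topoisomerase that untangles chromosomes, had the most normalized counts among the mitotic members. Mcm7 encodes a subunit of the replicative helicase, and Pcna, the sliding clamp of DNA polymerases, had the most normalized counts among the replication members.
Mki67 (chr7:135716380-135716629, minus strand): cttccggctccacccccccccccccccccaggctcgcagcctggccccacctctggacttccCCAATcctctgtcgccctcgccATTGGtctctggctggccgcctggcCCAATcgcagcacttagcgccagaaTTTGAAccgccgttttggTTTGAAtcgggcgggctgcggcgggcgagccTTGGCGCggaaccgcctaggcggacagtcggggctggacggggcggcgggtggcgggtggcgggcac
Top2a (chr11:99024190-99024439, minus strand): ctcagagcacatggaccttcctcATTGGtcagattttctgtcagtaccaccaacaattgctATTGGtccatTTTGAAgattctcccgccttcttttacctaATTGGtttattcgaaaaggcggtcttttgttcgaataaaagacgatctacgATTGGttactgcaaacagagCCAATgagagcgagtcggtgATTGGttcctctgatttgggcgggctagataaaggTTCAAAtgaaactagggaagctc
Mcm7 (chr5:138171884-138172133, minus strand): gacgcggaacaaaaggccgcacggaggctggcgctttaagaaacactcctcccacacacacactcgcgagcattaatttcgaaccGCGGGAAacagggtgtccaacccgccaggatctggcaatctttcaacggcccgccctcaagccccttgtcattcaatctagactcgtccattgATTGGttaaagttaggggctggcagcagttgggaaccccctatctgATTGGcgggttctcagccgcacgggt
Pcna (chr2:132253181-132253430, minus strand): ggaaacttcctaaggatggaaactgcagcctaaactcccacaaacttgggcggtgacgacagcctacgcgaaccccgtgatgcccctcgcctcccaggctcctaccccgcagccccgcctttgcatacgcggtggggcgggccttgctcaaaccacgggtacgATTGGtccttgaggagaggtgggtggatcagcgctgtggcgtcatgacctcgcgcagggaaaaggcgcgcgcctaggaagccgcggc
Mki67 carried CHR matches beginning 116 and 98 bases before the start and an E2F match at 67 bases. Top2a carried CHR matches at 179 and 23 bases and no E2F match, whereas Mcm7 carried an E2F match at 165 bases and no CHR match. Pcna held only a CCAAT box, 87 bases before the start. These distances are from the RefSeq start, and for Mcm7, which had 2 windows, the first is shown. The GENCODE gene positions used further on begin Mcm7 and Pcna further upstream. By these positions the Mcm7 window and part of the Pcna window, with its CCAAT box, lie inside the gene.

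**Figure D1:**
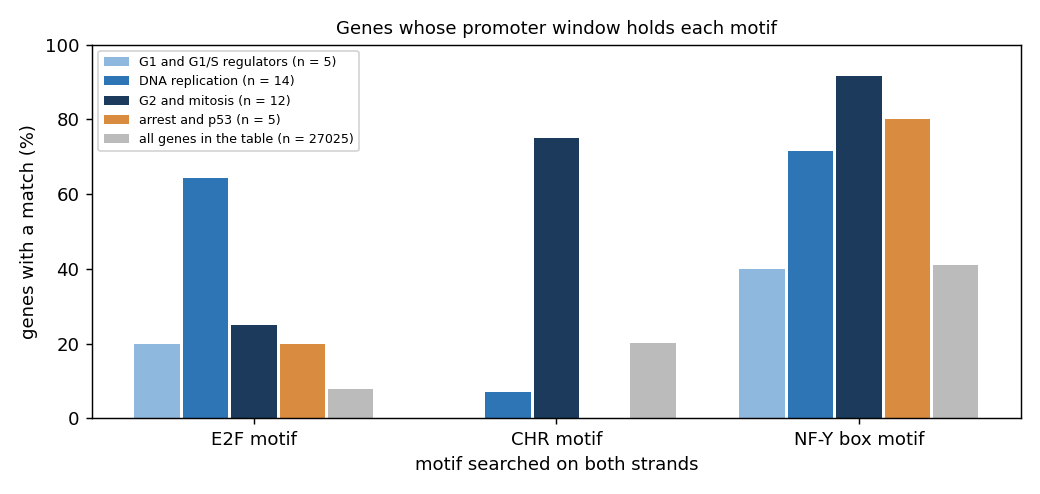
Percent of genes (y axis) whose promoter window holds an E2F, CHR or NF-Y (CCAAT) box motif, for the 4 role groups and for all 27025 genes of the table. E2F matches peak in the replication genes (64.3%) and CHR matches in the mitotic genes (75%).

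The values below are expected counts per gene, as estimated by RSEM and deposited without normalization, and normalized counts, which are expected counts divided by each library's TMM scaling. Each library had between 8696712 and 10341622 counts, of which between 1.30% (p62S351E/+ mouse 1) and 3.30% (p62+/+ mouse 1) lay outside Rn45s, Lars2 and Mir6236. Counts of the 45 members together came to 262, 258 and 249 (p62+/+) and to 153, 172 and 269 (p62S351E/+). One read was worth 1.90 normalized counts in p62S351E/+ mouse 1 and between 0.775 and 1.26 normalized counts in the other mice. Hepatocyte identity was plain, with between 5101 and 13009 counts of Alb (albumin) per library. Markers of other tissues differed between libraries. A set of 20 neuron and glia markers summed to between 2532 and 2929 counts in the p62+/+ mice and to 2701 counts in p62S351E/+ mouse 3, but to 31 and 9 counts in p62S351E/+ mice 1 and 2, where Snap25 and Gfap were at 0. Counts of Xist, the RNA that silences one X chromosome in females, were 70.8, 1505 and 1071 (p62+/+) and 1, 0 and 1537 (p62S351E/+). The part of these differences in the results below was not tested, and values from the 4 libraries with brain transcripts are given for the role sums and the tested members.

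Transcripts of cell division had low counts in all 6 livers, as did most genes at this depth. In every library, 31 of the 45 members stayed under 10 counts, and the median member had 21 counts in the 6 libraries together. The share of all genes that stayed under 10 counts was not computed. The filter on low counts used further on kept 6 of the 45 members and 5945 of all 24411 genes. Per kilobase of exon, the p62+/+ mean was 2621 normalized counts for Alb and 18.0 for Hnf4a, a hepatocyte transcription factor, against 5.76 for Pcna, 4.60 for Cdkn1b, 4.14 for Ccnd1 and 2.23 for Mki67. The lowest members came from several roles. Cdc6, which loads the helicase, had 1 count in the 6 libraries, Plk1 and Cdc20 had 3 counts each, and Ccnb1, Ccne1, E2f1 and Aurkb had 4 counts each. A difference between the genotypes in such genes was not detectable at this depth, since a count of 0 in a library allows up to 3 counts (counting error only).

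**Figure D2:**
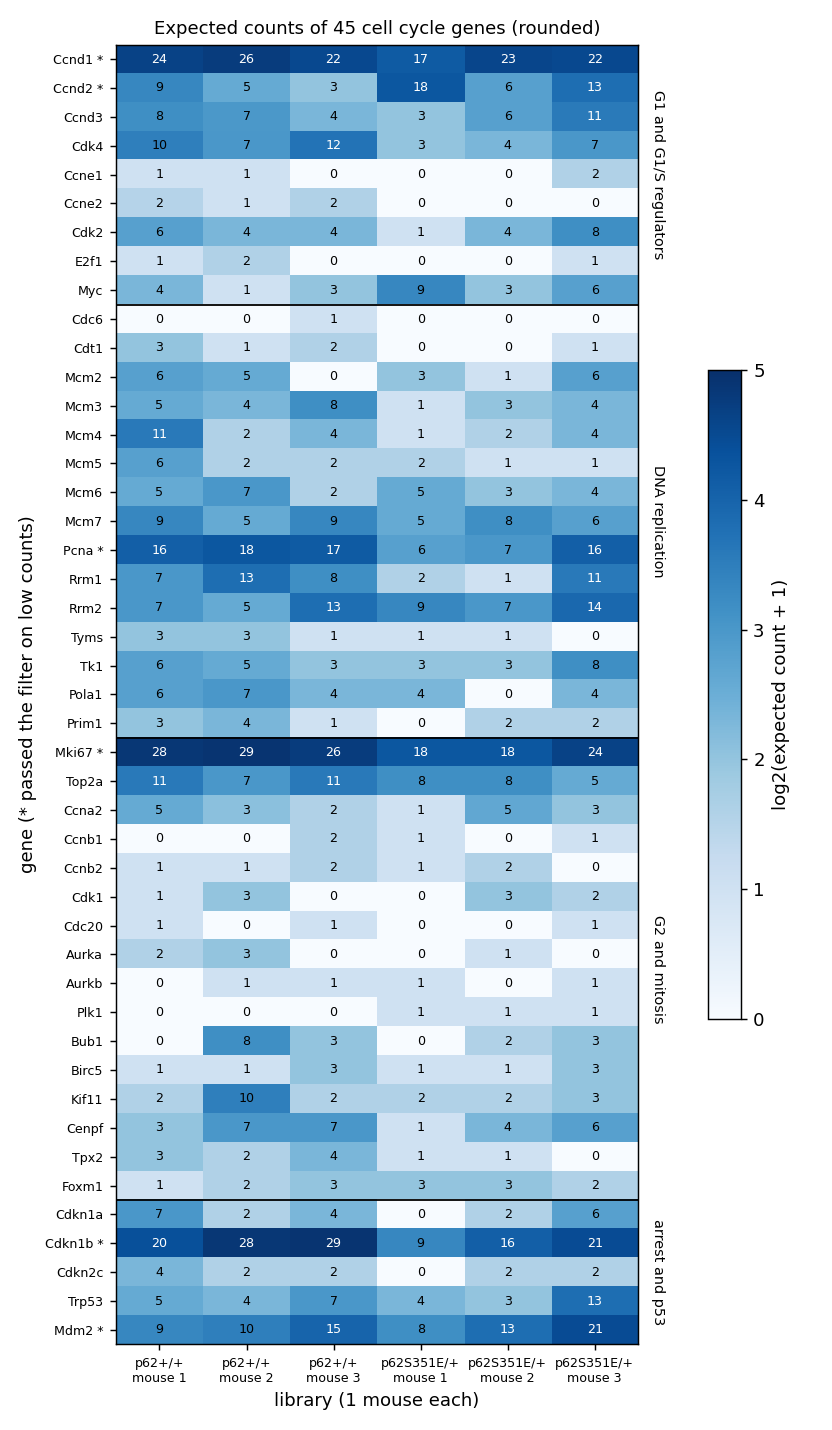
Rounded expected counts of the 45 members (rows, by role) in the 6 libraries (columns, 1 mouse each), with colour as log2(expected count + 1). Only 6 genes, marked with an asterisk, passed the filter on low counts, and p62S351E/+ mouse 1 has the most members at 0 (12 of 45).

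Since single genes were low, normalized counts were summed by role. The 15 replication genes (the helicase subunits Mcm2 to Mcm7, the loading factors Cdc6 and Cdt1, the clamp Pcna, the nucleotide enzymes Rrm1, Rrm2, Tyms and Tk1, and the primase-polymerase genes Pola1 and Prim1) summed to 74.6, 62.9 and 64.8 normalized counts in p62+/+ mice, against 80.0, 49.1 and 62.8 in p62S351E/+ mice. The p62S351E/+ mice lay on both sides of the p62+/+ mice. The means were 67.4 ± 6.31 and 64.0 ± 15.5 normalized counts (SD, n = 3 each), a ratio of 0.949, and 0.938 in the 4 libraries with brain transcripts. Pooled over mice, the ratio of normalized reads was 0.920, with a 95% interval of 0.751 to 1.13 that covers counting error only (exact binomial).

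The 16 mitotic genes summed to 47.4, 60.0 and 57.9 normalized counts in p62+/+ mice, against 74.3, 64.6 and 42.6 in p62S351E/+ mice. Here too the p62S351E/+ mice spanned the p62+/+ range, with mouse 1 highest and mouse 3 lowest. The means were 55.1 ± 6.77 and 60.5 ± 16.2 normalized counts (SD, n = 3 each), a ratio of 1.10, and the pooled ratio was 1.01 (95% interval 0.811 to 1.26, counting error only). With the 4 libraries that held brain transcripts alone, which leaves p62S351E/+ mouse 3, the ratio was 0.780.

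The 5 arrest and p53 genes summed to 36.1, 35.7 and 49.2 normalized counts in p62+/+ mice, against 40.0, 45.4 and 48.8 in p62S351E/+ mice, so the groups overlapped. The means were 40.4 ± 7.69 and 44.7 ± 4.44 normalized counts (SD, n = 3 each), a ratio of 1.11, and the pooled ratio was 1.15 (95% interval 0.894 to 1.47, counting error only). In the 4 libraries with brain transcripts the ratio was 1.22.

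Of the 4 role groups of members, the 9 regulators of G1 and of entry into S phase alone had normalized sums that did not overlap. They summed to 52.1, 41.8 and 43.2 normalized counts in p62+/+ mice, against 97.1, 58.0 and 54.0 in p62S351E/+ mice. All 3 p62S351E/+ mice lay above the p62+/+ mice, mouse 3 by less than 2 normalized counts. Before scaling the groups overlapped, with totals of 169 counts in p62+/+ and 167 counts in p62S351E/+ mice. The raw sums of p62S351E/+ mice 1 and 2 were 51 and 46, below the 64.87 and 53.86 of p62+/+ mice 1 and 2. That of p62S351E/+ mouse 3 was the highest, at 69.77. The groups thus separated only after scaling. The means were 45.7 ± 5.56 and 69.7 ± 23.8 normalized counts (SD, n = 3 each), a ratio of 1.53, and the pooled ratio was 1.40 (95% interval 1.12 to 1.74, counting error only). Without p62S351E/+ mouse 1 the ratio was 1.24, and in the 4 libraries with brain transcripts it was 1.19. From p62+/+ to p62S351E/+ mice, mean normalized counts rose most for Ccnd2 (4.57 to 17.3), Ccnd1 (19.5 to 26.1) and Myc (2.19 to 8.52). The means of Cdk4, Ccne1, Ccne2 and E2f1 were lower in p62S351E/+ mice. Without Ccnd2, left out after its values were seen, the groups overlapped, with p62S351E/+ mouse 3 below p62+/+ mouse 1. The 15 further G1 and G1/S genes of the pathway overlapped between the genotypes, with sums of 56.2, 75.3 and 57.9 against 74.3, 78.1 and 69.0 normalized counts and a ratio of 1.17. Scaled by library size alone the member ratio was 0.886, but the median log2 fold change over all genes then went from -0.03 to -0.68. The 10 hepatocyte markers also summed higher without overlap, to 13040, 11710 and 12470 normalized counts against 19320, 28790 and 13770, a ratio of 1.66. So did the leukocyte markers given at the end, with a ratio of 1.28, and the part of either in the result was not tested. The sums were not tested, because the members were chosen with results of these data known.

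**Figure D3:**
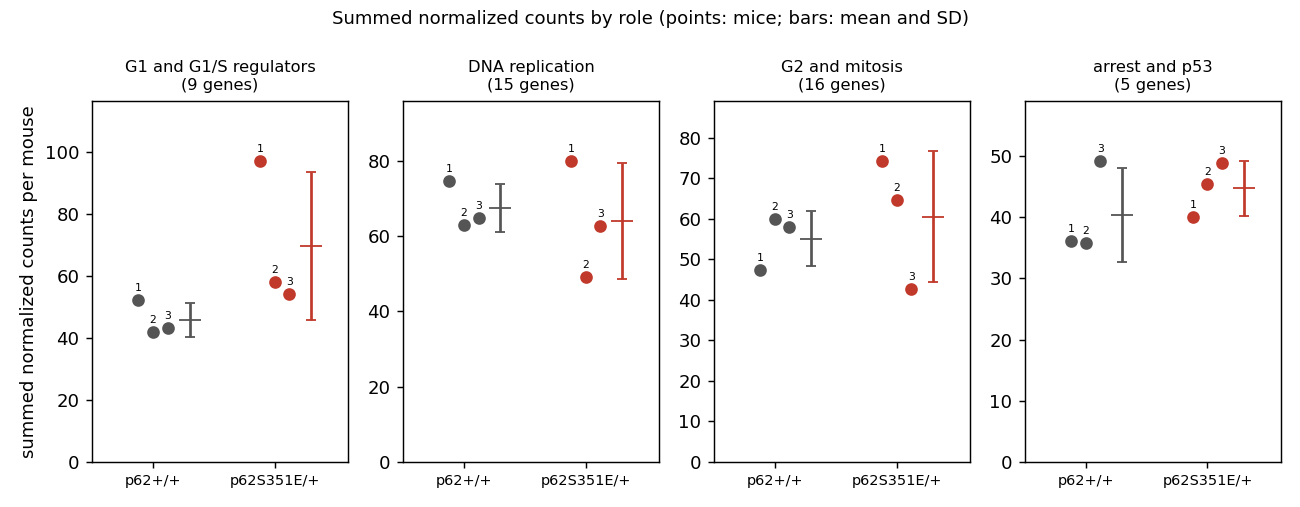
Summed normalized counts (y axis, from 0) of the 4 role groups in each mouse (numbered points), with the mean and SD of each genotype beside them. Only the G1 and G1/S regulators separate the genotypes, with a ratio of means of 1.53, and the groups overlap without Ccnd2 or before scaling.

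The genotypes were compared gene by gene with edgeR's quasi-likelihood test, which was fitted to the 5945 genes with enough counts to keep. A gene was called if its Benjamini-Hochberg adjusted p was below 0.05 and its log2 fold change was above 1 or below -1. Of the 45 members 6 passed the filter, namely Ccnd1, Ccnd2, Pcna, Mki67, Cdkn1b and Mdm2. None of the 6 was called higher (0.841% of all tested genes were) and none was called lower (0.0841% of all tested genes were). DESeq2 and limma-voom also called 0 members. At an unadjusted p below 0.05, 1 of the 6 members passed, against 14.6% of all tested genes. In normalized counts the groups did not overlap for 2 of the 6 in the direction of p62S351E/+ being higher, Ccnd2 and Mdm2. They did not overlap for 1 in the other direction, Pcna. Over all tested genes these shares were 12% and 14.7%. Before scaling, counts of Ccnd2 were 9, 5 and 3 (p62+/+) against 18, 6 and 13 (p62S351E/+), which overlapped. Those of Mdm2, 9, 10 and 15 against 8, 13 and 21, overlapped too. For Pcna, at 16, 18 and 17 against 6, 7 and 16, the groups met at 16.

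Among the D-type cyclins, which couple growth signals to the cell cycle, Ccnd2 had the largest fold change of the tested members. It had 7.22, 3.88 and 2.59 normalized counts in p62+/+ mice, against 34.3, 7.56 and 10.1 in p62S351E/+ mice. All p62S351E/+ mice were higher, but mouse 2 only just, and mouse 1 stood far above the others with 18 reads. The log2 fold change was 1.82 (standard error 0.66, 95% interval 0.32 to 3.33 before adjustment) and was not called (edgeR, adjusted p = 0.279). In the 4 libraries with brain transcripts, which leave p62S351E/+ mouse 3 alone in its group, it was 1.12. Ccnd2 lies at chr6:127125162-127152193, minus strand (GENCODE, GRCm38, as for the positions that follow) and passed the filter with 1 p62+/+ library and 2 p62S351E/+ libraries over the count limit.

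Ccnd1 (chr7:144929931-144939925, minus strand), the cyclin D gene with the most counts in these livers, had 19.3, 20.2 and 19 normalized counts in p62+/+ mice, against 32.4, 29.0 and 17.0 in p62S351E/+ mice. Mice 1 and 2 were above the p62+/+ mice and mouse 3 was below them. The log2 fold change was 0.40, with a 95% interval of -0.28 to 1.09 (standard error 0.30; edgeR, adjusted p = 0.542), and in the 4 libraries with brain transcripts it was -0.18. Ccnd3 had 5.07 ± 1.5 and 7.21 ± 1.35 normalized counts and Cdk4, the kinase partner of the D-type cyclins, had 7.94 ± 2.47 and 5.39 ± 0.338 in p62+/+ and p62S351E/+ mice (SD, n = 3 each). Cdk2, the kinase partner of cyclin E, had 27 counts in the 6 libraries together. None of the 3 had enough counts to be tested, and counts of Ccnd3 were partly not whole numbers.

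Myc (chr15:61985391-61990374, plus strand), which encodes a growth-promoting transcription factor, did not pass the filter. It had raw counts of 4, 1 and 3 (p62+/+) and 9, 3 and 6 (p62S351E/+), which overlapped. After scaling these were 3.21, 0.776 and 2.59 against 17.1, 3.78 and 4.65 normalized counts, which did not overlap, or 2.19 ± 1.27 and 8.52 ± 7.47 normalized counts (SD, n = 3 each). As for Ccnd2, mouse 1 was the highest of the p62S351E/+ mice. In a fit without a filter, Myc had a log2 fold change of 1.74 and was not called (adjusted p = 0.453, edgeR). A further 3 of the 39 untested members had normalized counts that did not overlap. Plk1, a mitotic kinase, had 1 read in each p62S351E/+ mouse and none in the p62+/+ mice. Ccne2, a cyclin E gene, was listed with 1.87, 1 and 2.01 counts in p62+/+ mice and none in p62S351E/+ mice, and Cdt1, a replication licensing factor, had 3, 1 and 2 counts against 0, 0 and 1. For Cdt1 the highest p62S351E/+ and the lowest p62+/+ mouse had 1 read each and were set apart by the scaling alone (0.775 and 0.776 normalized counts). Thus 2 of 39 were higher and 2 of 39 lower, where 3.45% and 9.63% of the detected genes that failed the filter did not overlap in these directions.

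Pcna (chr2:132249162-132253314, minus strand) had 12.8, 14.0 and 14.7 normalized counts in p62+/+ mice, against 11.4, 8.82 and 12.4 in p62S351E/+ mice. Every p62S351E/+ mouse was below every p62+/+ mouse, mouse 3 by less than 1 normalized count. The log2 fold change of -0.34 was about as large as its standard error of 0.31 (95% interval -1.05 to 0.37) and was not significant (adjusted p = 0.606, edgeR), and in the 4 libraries with brain transcripts it was -0.14. Rrm2, the regulated subunit of ribonucleotide reductase, had 6.91 ± 3.84 and 12.3 ± 4.34 normalized counts, and Rrm1, its partner subunit, had 7.54 ± 2.30 and 4.53 ± 3.68 (p62+/+ and p62S351E/+, SD, n = 3 each). The groups overlapped for both. The raw counts of Rrm1 were 7, 13 and 8 in p62+/+ mice, against 2, 1 and 11 in p62S351E/+ mice, so the low libraries were those without brain transcripts, whose part in this was not tested. The 6 helicase genes Mcm2 to Mcm7 had between 14 and 42 counts each in the 6 libraries together, none was tested, and the groups overlapped for all of them. Tyms, Tk1, Pola1 and Prim1 had between 9 and 28 counts each.

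Mki67 was the most abundant mitotic member in reads, over exons of 10061 bases (chr7:135689784-135716361, minus strand). It had 22.5 normalized counts in each of the 3 p62+/+ mice and 34.3, 22.7 and 18.6 in the p62S351E/+ mice, which therefore lay on both sides. Its log2 fold change of 0.14 had a 95% interval of -0.52 to 0.80 (standard error 0.29; edgeR, adjusted p = 0.827). The sign depended on p62S351E/+ mouse 1, since without that mouse the log2 fold change was -0.12, and in the 4 libraries with brain transcripts it was -0.26. Top2a (chr11:98992943-99024189, minus strand) had 8.83, 5.43 and 9.50 normalized counts in p62+/+ mice, against 15.2, 10.1 and 3.87 in p62S351E/+ mice. Its p62S351E/+ mice stood in the same order as for Mki67, with mouse 1 highest and mouse 3 lowest, and the groups overlapped. The other mitotic members, among them the cyclin genes Ccna2, Ccnb1 and Ccnb2, the kinase genes Cdk1, Aurka, Aurkb and Bub1, the spindle genes Kif11, Tpx2 and Cenpf, the chromosomal passenger gene Birc5 and the mitotic regulator Foxm1, had at most 28 counts each over all libraries.

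Mdm2 (chr10:117688875-117710758, minus strand), which encodes the ubiquitin ligase that degrades p53 and is itself a p53 target, had 7.22, 7.76 and 13.0 normalized counts in p62+/+ mice, against 15.2, 16.4 and 16.3 in p62S351E/+ mice. All p62S351E/+ mice were above the p62+/+ mice, and they lay close together, including mouse 3. The log2 fold change of 0.78 (standard error 0.34, 95% interval -0.01 to 1.57) was not significant (adjusted p = 0.35, edgeR). In the 4 libraries with brain transcripts, which leave p62S351E/+ mouse 3 alone in its group, it was 0.82. Trp53 (chr11:69580359-69591873, plus strand), the p53 gene, had 4.39 ± 1.51 and 7.16 ± 3.17 normalized counts in p62+/+ and p62S351E/+ mice (SD, n = 3 each), with overlapping groups. Cdkn1a (chr17:29090976-29100727, plus strand), the CDK inhibitor gene that p53 induces, had counts of 7, 2 and 4 in p62+/+ mice, against 0, 2 and 6 in p62S351E/+ mice. Its normalized counts of 3.54 ± 2.03 and 2.39 ± 2.33 (SD, n = 3 each) overlapped, and a difference in Cdkn1a was not detectable at this depth.

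Cdkn1b (chr6:134920401-134925513, plus strand), which encodes the CDK inhibitor of quiescent cells, was the most abundant arrest gene, with 16.1, 21.7 and 25.0 normalized counts in p62+/+ mice, against 17.1, 20.2 and 16.3 in p62S351E/+ mice. The groups overlapped. The log2 fold change was -0.23 (standard error 0.28, 95% interval -0.88 to 0.42, adjusted p = 0.698, edgeR), and in the 4 libraries with brain transcripts it was -0.35. Cdkn2c, an inhibitor of CDK4 and CDK6, had 12 counts in the 6 libraries together.

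**Figure D4:**
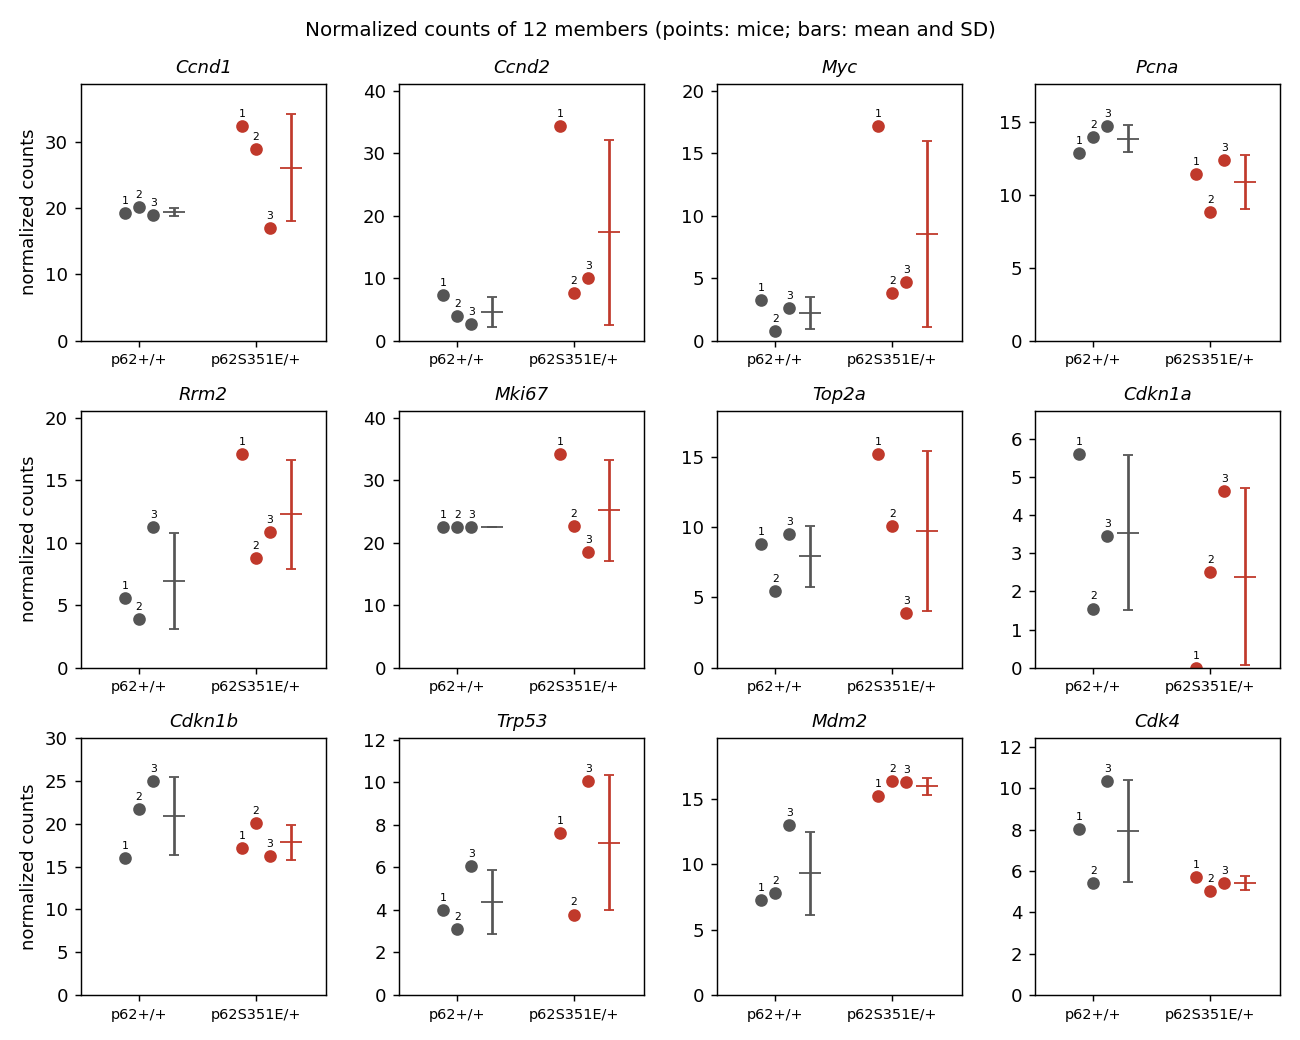
Normalized counts (y axes, from 0) of 12 members in each mouse (numbered points), with the mean and SD of each genotype beside them. The groups do not overlap for Ccnd2, Myc and Mdm2 (higher in p62S351E/+) and for Pcna (lower), and p62S351E/+ mouse 1 is the highest mouse for Ccnd1, Ccnd2, Myc, Rrm2, Mki67 and Top2a.

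The rest of the cell cycle pathway was read from lists of further genes. Of 107 such genes, 13 passed the filter. None of the 13 was called higher or lower (edgeR), where 0.841% and 0.0841% of all tested genes were. At an unadjusted p below 0.05 (edgeR), 3 of the 13 passed, against 14.6% of all tested genes. The 7 tested genes of the arrest and p53 list gave a median of 0.06 on the log2 scale and the 3 tested mitotic genes a median of -0.80, against -0.03 for all tested genes. This mitotic median is the value of Anln, with Stmn1 below it and Smc4, at 0.19, above it. Btg1 and Tob1, related genes whose products restrain proliferation, had the highest log2 fold changes among the 7 tested genes of the arrest list. Btg1 had 16.9, 16.3 and 10.4 normalized counts in p62+/+ mice, against 47.6, 31.5 and 24.0 in p62S351E/+ mice. The groups did not overlap, as for 12% of all tested genes in this direction. On the log2 scale the fold change of Btg1 was 1.22, with a standard error of 0.34 (edgeR, adjusted p = 0.17). For Tob1 it was 0.72 (standard error 0.30; edgeR, adjusted p = 0.326), and its p62S351E/+ mouse 3 lay within the p62+/+ range.

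Stmn1, which encodes the microtubule-destabilizing protein stathmin, had the lowest log2 fold change among the 13 tested further genes, at -1.07 (standard error 0.45, adjusted p = 0.326, edgeR). It had 25.7, 25.6 and 29.4 normalized counts in p62+/+ mice, against 7.62, 6.30 and 22.5 in p62S351E/+ mice. The low libraries were those of p62S351E/+ mice 1 and 2, which also had the neuron and glia markers near 0, and the part of brain transcripts in this result was not tested. Anln, which encodes a scaffold protein of the cleavage furrow, was at -0.80 on the same scale (standard error 0.51; edgeR, adjusted p = 0.481). Rpa1, a single-strand DNA binding protein gene, had one of -0.47 (adjusted p = 0.62, edgeR), and the transcription factor genes Max and Tfdp2 had 0.45 each (adjusted p = 0.581 and 0.625, edgeR). The 37 further mitotic genes summed to between 113 and 138 normalized counts in the p62+/+ mice and to between 99.5 and 112 in the p62S351E/+ mice, which did not overlap. Without Stmn1, left out after its values were seen, the groups overlapped, at 103, 113 and 83.3 against 105, 93.2 and 81.8 normalized counts, a ratio of 0.937 in place of 0.833. The 27 further replication genes overlapped, with means of 85.0 ± 12.7 and 86.5 ± 11.9 (SD, n = 3 each), as did the 28 further arrest genes (206 ± 39.0 and 238 ± 49.95).

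**Figure D5:**
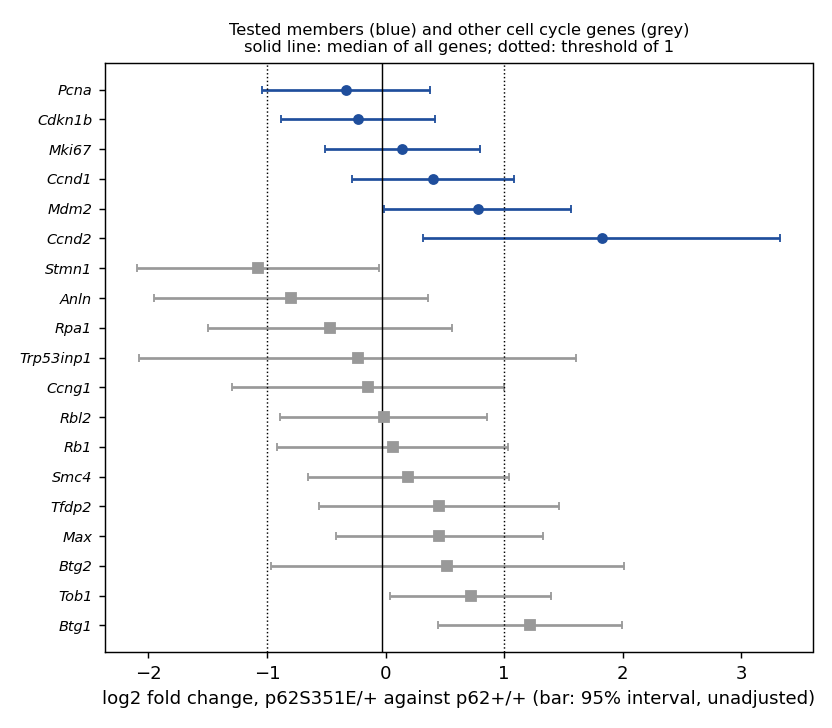
Log2 fold changes (x axis) of p62S351E/+ against p62+/+ livers for the 6 tested members (blue circles) and 13 further tested cell cycle genes (grey squares), with unadjusted 95% intervals. None passed the threshold after adjustment, and the widest member interval is that of Ccnd2 (0.32 to 3.33).

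Markers of cells that divide in or pass through the liver were counted beside these values. The 10 leukocyte markers summed to 40.1, 35.7 and 35.4 normalized counts in p62+/+ mice, against 43.8, 45.4 and 53.5 in p62S351E/+ mice, which did not overlap. The 1 marker that passed the filter, the Kupffer cell gene Clec4f, lay the other way, with 24.1, 23.3 and 18.1 against 11.4, 16.4 and 16.3 normalized counts, and was not called (log2 fold change -0.55, edgeR, adjusted p = 0.408). Of the 10 erythroid markers 9 were in the table, and these summed to between 137 and 197 normalized counts in the p62+/+ mice and between 58.5 and 133 in the p62S351E/+ mice, which were lower without overlap. Among these, Hbb-bs, Klf1 and Rhag were at 0 in all 6 libraries, while Hbb-bt and Alas2 had counts in every library. The globin gene Hba-a1 had 194, 162 and 75.7 counts in p62+/+ mice, against 55, 0 and 0 in p62S351E/+ mice. For Hba-a2 the counts were 0, 0 and 122 against 0, 67 and 62. In p62+/+ mouse 3 the counts of both, 75.73 and 122.27, were not whole, where RSEM had divided shared reads. How reads were divided between Hba-a1 and Hba-a2 was not tested, so a 0 for either need not be a lack of expression. The 8 endothelial markers overlapped, with means of 198 ± 53.6 and 209 ± 46.8 normalized counts (SD, n = 3 each), as did the 6 cholangiocyte markers (60.2 ± 32.2 and 43.4 ± 24.4). The part of these cells in the counts of the members was not tested.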

How the data were processed

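Liver RNA was depleted of ribosomal RNA and sequenced as 75-bp single-end reads. The authors trimmed the reads with Trim Galore, mapped them to mm10 with STAR and deposited expected counts per gene from RSEM, without normalization; versions and the gene annotation are not given in the sources used here. RSEM divides reads shared by several genes, and counts of 3 members (Ccnd3, Ccne2 and Ccna2) were not whole. Genotypes and mouse numbers came from the sample labels.

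Expected counts were rounded and tested in R 4.3.3 with edgeR 4.0.16 (filterByExpr with a minimum count of 10, TMM, robust quasi-likelihood fit with legacy set to FALSE, design by genotype), with Benjamini-Hochberg adjustment over 5945 genes. Standard errors were obtained from the F statistic, as the size of the log2 fold change over the root of F. To normalize, each library's expected counts were divided by its effective (TMM) library size after these sizes were set to a geometric mean of 1. Alternatives used DESeq2 1.42.0, limma 3.58.1 and other scalings, filters and mice. Sums over members were not tested. P-values set a difference against counting error and the spread between these mice together. For each gene this spread was estimated partly from the other tested genes. The fits were tested on simulated data.

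The members and lists were chosen with earlier results of these data known. The rule for named genes took members called, tested members whose groups did not overlap, the 2 most abundant of each role, the 3 tested members with the highest and the 3 with the lowest fold change, and Ccnd1, Ccnd2, Cdkn1a, Cdkn1b, Myc, Mki67, Top2a, Pcna, Trp53 and Mdm2. Of the further genes they were those called and up to 2 per list with the largest change. Other members were named to account for the list, after their values were seen. Exon lengths are unions of GENCODE M21 exons on GRCm38, the assembly of mm10. Total counts per library lay between 8696712 and 10341622, and intervals of pooled ratios cover counting error only.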

Additional observations from a re-analysis of the deposited data

How the results depend on the processing

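No member was called higher or lower under any of the 17 alternatives. The log2 fold changes of Ccnd2, Pcna, Cdkn1b and Mdm2 kept their sign in all alternatives that tested them (14 for Ccnd2 and 16 for each of the others). Without p62S351E/+ mouse 1 or mouse 3, and with at least 10 counts required in every library, Ccnd2 failed the filter. With library size as the only scaling, Ccnd1 was at -0.37 and Mki67 at -0.62 (log2), and the ratios of the summed counts were 0.886 for the G1 and G1/S regulators, 0.585 for replication, 0.644 for mitosis and 0.726 for arrest and p53. This scaling moved the median log2 fold change of all genes to -0.68. Mki67 was at -0.058 with library sizes without Rn45s, Lars2 and Mir6236, at -0.13 with at least 10 counts in every library and between -0.12 (without p62S351E/+ mouse 1) and 0.32 (without mouse 3) with one mouse left out. In the 4 libraries with brain transcripts, a set chosen after seeing the data that leaves a lone p62S351E/+ mouse assumed to vary like the p62+/+ mice, Ccnd1 was at -0.18, Mki67 at -0.26 and the mitotic ratio at 0.780. Without Cdkn1b the arrest and p53 ratio was 1.38. The causes of these shifts were not tested. With one mouse left out, the ratios ran from 1.24 to 1.70 for the G1 and G1/S regulators, 0.835 to 1.06 for replication, 0.981 to 1.26 for mitosis and 1.05 to 1.25 for arrest and p53.

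The mouse numbers are shared by the genotypes, but the mice are different animals. Deviations of same-numbered mice from their group means correlated at 0.07, -0.08 and 0.00 (log2 normalized counts + 0.5). Not every mouse correlated best with its own number. With 3 mice per genotype these correlations cannot decide whether same-numbered mice shared a litter or batch. The labels name no pairs, so the mice were treated as unpaired. With the replicate number as a block, 0 members were called higher and 0 lower, and over all genes 18 were higher and 1 lower, against 50 and 5 without it. Calls over all genes without p62S351E/+ mouse 3 were 333 higher and 975 lower. The p62S351E/+ libraries then left had 31 and 9 counts of neuron and glia markers, against between 2532 and 2929 in p62+/+ mice. Genotype and brain transcripts cannot be told apart in that comparison. Depth limits the comparison, since 39 of the 45 members failed the filter.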
